A study of Mus musculus with 14 samples.

Results

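The miR-26 family was followed in small extracellular vesicles released by mouse neutrophils. Its members were taken by name: a column of the count table belonged to the family when its miRNA name was mmu-miR-26a-5p, mmu-miR-26b-5p, mmu-miR-26a-1-3p, mmu-miR-26a-2-3p or mmu-miR-26b-3p. All 5 names were found among the 1695 listed. Neutrophils, taken as Ly6G-positive cells from bone marrow of wild-type BALB/c females of unstated age, were held for 48 h in DMSO, the solvent, or in 10 µM 27HC (27-hydroxycholesterol). The cells carried no genetic change, and each treatment had 7 libraries of vesicle RNA, numbered 1 to 7. Whether a library came from 1 mouse or from pooled mice is not given in the sources used here, so p-values measure the spread between these libraries, which may be technical in part. The comparison asks how an oxysterol changes the miRNA cargo of the vesicles, in a study of what those vesicles do to breast cancer cells.

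MicroRNAs are short RNAs that guide Argonaute proteins to messenger RNAs and lower their output. Pairing through the seed, bases 2 to 8 of the miRNA, largely sets which messages are bound. The miR-26 hairpins sit inside genes of the Ctdsp family, which encode small phosphatases that act on the tail of RNA polymerase II. One arm of each hairpin, the 5p or guide strand, is usually kept, and the other, the 3p or passenger strand, is mostly degraded. miR-26 is expressed in most tissues and is best known for repressing Ezh2, the histone methyltransferase of a Polycomb complex, and for low levels in several tumours. In macrophages it has been reported to repress Abca1 and Arl4c, genes of cholesterol efflux that are induced by LXR, the nuclear receptor for oxysterols.

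The mature sequences show which counts can be told apart and which members would bind the same messages. They come from RefSeq (GRCm38.p6), where all 5 names were matched, and are written 5′ to 3′ with the seed in capitals.
mmu-miR-26a-5p: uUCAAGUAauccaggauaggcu
mmu-miR-26b-5p: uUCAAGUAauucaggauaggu
mmu-miR-26a-1-3p: cCUAUUCUugguuacuugcacg
mmu-miR-26a-2-3p: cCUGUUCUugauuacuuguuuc
mmu-miR-26b-3p: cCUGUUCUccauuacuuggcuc
The guide strands miR-26a-5p and miR-26b-5p share a seed that no other listed name with a RefSeq sequence carried. Counted from 1 at the 5′ end, they differ by 2 substitutions over the 21 positions compared, C11U and C21U, with miR-26a-5p written first, and miR-26a-5p is 1 base longer. The passenger strands hold 2 seeds: miR-26a-2-3p and miR-26b-3p share one, and A4G separates it from the seed of miR-26a-1-3p. The shared passenger seed is also that of miR-6932-3p and miR-7039-3p, from outside the family. Of the 1695 listed names, 1431 had a RefSeq sequence. Among names with a sequence, none outside the family lay within 4 substitutions of a member, compared from the 5′ end without gaps. How reads that fit both guide strands were assigned is not given in the sources used here, so the split between miR-26a-5p and miR-26b-5p is uncertain.

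The hairpins show why miR-26a-5p has no single genomic source. Mature arms are in capitals, and every hairpin lies on the plus strand.
Mir26a-1: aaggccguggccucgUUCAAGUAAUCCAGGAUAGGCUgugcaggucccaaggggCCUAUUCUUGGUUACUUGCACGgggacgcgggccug
Mir26a-2: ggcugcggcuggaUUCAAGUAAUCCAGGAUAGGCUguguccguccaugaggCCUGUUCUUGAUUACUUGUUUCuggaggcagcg
Mir26b: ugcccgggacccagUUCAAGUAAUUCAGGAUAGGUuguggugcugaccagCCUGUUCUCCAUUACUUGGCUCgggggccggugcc
Mir26a-1 lies at chr9:119031796-119031885, in an intron of Ctdspl. Mir26a-2 lies at chr10:126995530-126995613 within Ctdsp2, where GENCODE M21 places it in an exon of 2 transcripts, one of them a retained intron. Mir26b lies at chr1:74394310-74394394, in an intron of Ctdsp1. These positions are on GRCm38.p6, while the submitters' processing notes name GRCm39, and the count table itself holds no coordinates. miR-26a-5p is identical in Mir26a-1 and Mir26a-2, so its counts could come from either hairpin, and only the 3p names separate them.

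Library totals ran from 112914 to 871189 counts, with medians of 265651 in DMSO and 229324 in 27HC libraries. Levels are given as CPM, counts per 1000000 after scaling of library sizes by TMM. The names listed as myeloid markers, both arms of miR-223 and of miR-142a, summed to 82663 to 215030 CPM in single libraries. The miR-142a locus is active across blood cells, so its arms do not set myeloid apart from lymphoid cells. Markers of other sources were far lower: 955 to 2111 CPM for 5 erythroid names, 973 to 1674 CPM for 2 lymphoid names, 980 to 2403 CPM for 7 stromal and endothelial names, and 1881 to 4552 CPM for the liver marker miR-122-5p. The erythroid names miR-486a-5p and miR-486b-5p gave identical fits, so that sum may hold the same counts under both names. No marker was at 0 counts throughout a treatment. In this bulk RNA, fewer vesicles from a cell type and less of an RNA per vesicle cannot be told apart.

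The guide strand miR-26a-5p was an abundant vesicle miRNA, ranked 13 of the 1695 names by mean CPM, and miR-26b-5p ranked 81. Together their share of all counts was 1.33 ± 0.329% with DMSO and 0.955 ± 0.0506% with 27HC (SD, n = 7). miR-26a-5p was counted 46280 times over the 14 libraries and miR-26b-5p 2898 times. Both passed the filter on low counts, and the 3 passenger strands did not. The family is therefore described by 2 tested members, and by counts alone for the other 3.

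Levels of miR-26a-5p were spread widely among DMSO libraries and narrowly among 27HC libraries. In DMSO the lowest, median and highest libraries held 6169.5, 12758 and 19533 CPM. In 27HC they held 8273, 9042 and 10371 CPM. All 7 libraries with 27HC lay inside the DMSO range, and the relative SD was 33.7% in DMSO against 7.74% in 27HC. The mean was 12690 ± 4279 CPM in DMSO and 9111 ± 705 CPM in 27HC (SD, n = 7).

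For miR-26b-5p the pattern was alike at a lower level. The lowest, median and highest DMSO libraries held 476, 738 and 1303 CPM, and those of 27HC held 430, 530 and 668 CPM. Here 2 of the 7 treated libraries held less than any solvent library, and the other 5 overlapped with the solvent range. This overlap depends on the scaling. By plain totals, 27HC replicates 1, 2, 3, 4 and 7 held 552, 427, 458, 438 and 559 CPM. The lowest DMSO library, replicate 7, then held 567 CPM. The mean was 806 ± 294 CPM in DMSO and 534 ± 80.5 CPM in 27HC (SD, n = 7).

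Over all libraries neither guide strand passed the test. The log2 fold change of 27HC over DMSO was −0.48 for miR-26a-5p (SE 0.18, 95% interval −0.86 to −0.093, edgeR adjusted p 0.106). It was −0.60 for miR-26b-5p (SE 0.20, interval −1.04 to −0.17, edgeR adjusted p 0.0687). As folds, the intervals ran from 0.549 to 0.938 and from 0.487 to 0.888. Unadjusted, both had an edgeR p under 0.05 (0.0181 and 0.00920), as did 22.2% of the 239 names tested. By adjusted p, 0 of these 2 members were called (12.6% of all tested names were), and DESeq2 called neither, with adjusted p-values of 0.106 and 0.0536.

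This outcome lay close to the threshold. With library sizes taken as plain totals, both were called (edgeR adjusted p 0.0288 and 0.0341), and also with upper quartile scaling (0.0442 and 0.0339). Without DMSO replicate 7 both were called, with edgeR adjusted p-values of 0.00745 and 0.0247. Without DMSO replicate 6 miR-26b-5p was called, at 0.0357. Without DMSO replicate 3, the deepest library and the highest in both members, the log2 fold changes shrank to −0.29 and −0.39, with edgeR adjusted p-values of 0.343 and 0.221. Over the 28 alternatives the adjusted p ran from 0.00745 to 0.343 for miR-26a-5p and from 0.0247 to 0.221 for miR-26b-5p, and both stayed lower with 27HC in each.

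**Figure D1:**
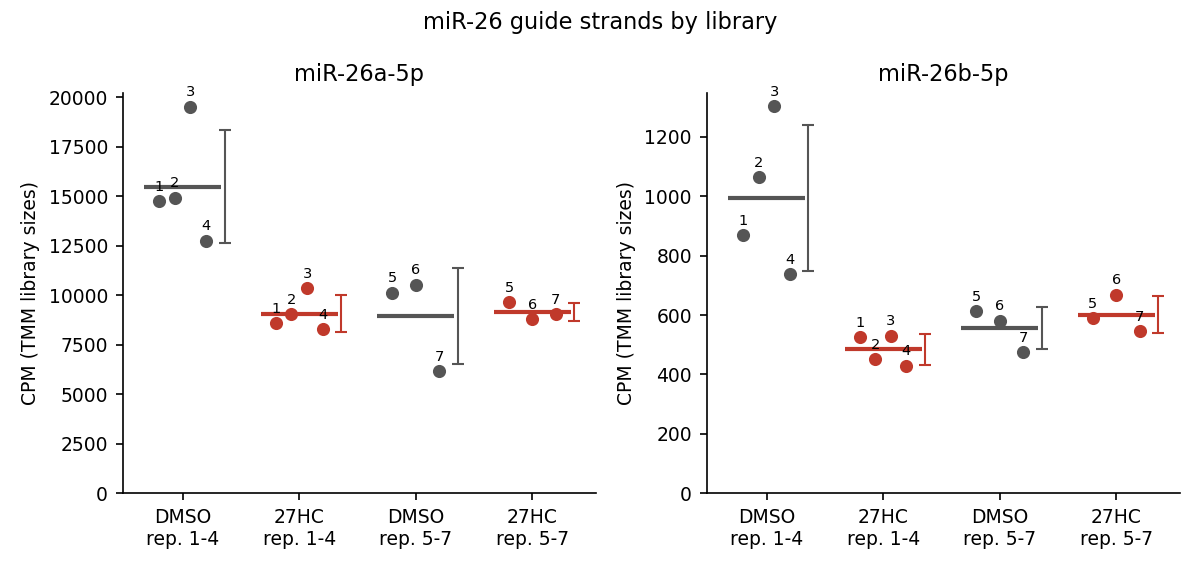
CPM of miR-26a-5p (left) and miR-26b-5p (right) in each library, by treatment and by replicates 1 to 4 or 5 to 7, with replicate numbers beside the points, lines at the means and bars of 1 SD. In these TMM-scaled values the 4 DMSO libraries with replicate numbers 1 to 4 stand above every other library in both panels.

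The high DMSO libraries were replicates 1 to 4 by TMM-scaled CPM. By plain totals this did not hold fully for miR-26b-5p. DMSO replicate 4 then held 667 CPM, below DMSO replicate 5 at 682 CPM and 27HC replicate 6 at 693 CPM. Replicates 1 to 4 and 5 to 7 were examined separately because whole profiles were known to part along that line. The labels do not say what sets these replicates apart, and each set holds both treatments. In replicates 1 to 4, miR-26a-5p stood at 14761, 14937, 19533 and 12758 CPM in DMSO and at 8579, 9059, 10371 and 8273 CPM in 27HC, in order of replicate number. Every 27HC library lay below every DMSO library. miR-26b-5p stood at 870, 1065, 1303 and 738 CPM in DMSO against 526, 451, 530 and 430 CPM in 27HC, again with no overlap. Such a complete separation downward was seen in 15.3% of the 242 names tested in these libraries.

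Both guide strands fell with 27HC in replicates 1 to 4. The log2 fold change was −0.71 for miR-26a-5p (SE 0.13, 95% interval −0.99 to −0.42, edgeR adjusted p 0.00294), or 0.612 of the DMSO level. For miR-26b-5p it was −0.97 (SE 0.19, interval −1.39 to −0.56, edgeR adjusted p 0.00435), or 0.509 of the DMSO level. Among all tested names 17.4% were called in this set, and 10.7% were called and lower, around a median log2 fold change of 0.059. These 2 calls held in all 14 alternatives run within the set, each library left out in turn included. The adjusted p ran from 1.09e-07 to 0.0158 for miR-26a-5p and from 4.25e-06 to 0.0177 for miR-26b-5p. Both lowest values came from the fit without a filter on low counts. Its variance estimate is shared with names near 0 counts, so they may be too small.

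Depth also differed in this set, with DMSO totals of 265651 to 871189 counts and 27HC totals of 229324 to 405902. With the log2 library total as a covariate, an alternative added after seeing the data, the log2 fold changes were −0.62 for miR-26a-5p and −0.84 for miR-26b-5p (edgeR adjusted p 0.0105 and 0.0120). Without DMSO replicate 3 the log2 fold changes within the set were −0.64 and −0.87, with edgeR adjusted p-values of 0.00101 and 0.00526.

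In replicates 5 to 7 neither guide strand was called. miR-26a-5p stood at 10131, 10540 and 6169.5 CPM in DMSO and at 9659, 8792 and 9042 CPM in 27HC, so the treated libraries lay within the DMSO range. miR-26b-5p stood at 613, 581 and 476 CPM in DMSO against 589, 668 and 545 CPM in 27HC, and the groups overlapped. DMSO replicate 7 was the lowest of all 14 libraries in miR-26a-5p.

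The fitted change in replicates 5 to 7 was near 0 for both. It was 0.036 for miR-26a-5p (SE 0.21, 95% interval −0.44 to 0.51, edgeR unadjusted p 0.866) with a fold interval of 0.739 to 1.42. The fold interval of replicates 1 to 4, 0.503 to 0.746, overlaps it only between 0.739 and 0.746. For miR-26b-5p the fitted change was 0.12 (SE 0.21, interval −0.34 to 0.59, edgeR unadjusted p 0.571) with a fold interval of 0.787 to 1.503. In replicates 1 to 4 that interval was 0.382 to 0.678, without overlap. Overlap of intervals is no test of the difference, which is given below. Of the 198 names tested here 6.06% were called. The sign is not settled: with plain totals the changes were −0.082 and −0.011, and without DMSO replicate 7 that of miR-26a-5p was −0.17. With the log2 library total as a covariate, also added after seeing the data, they were −0.25 and −0.045. Neither was called in any of the 12 alternatives.

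**Figure D2:**
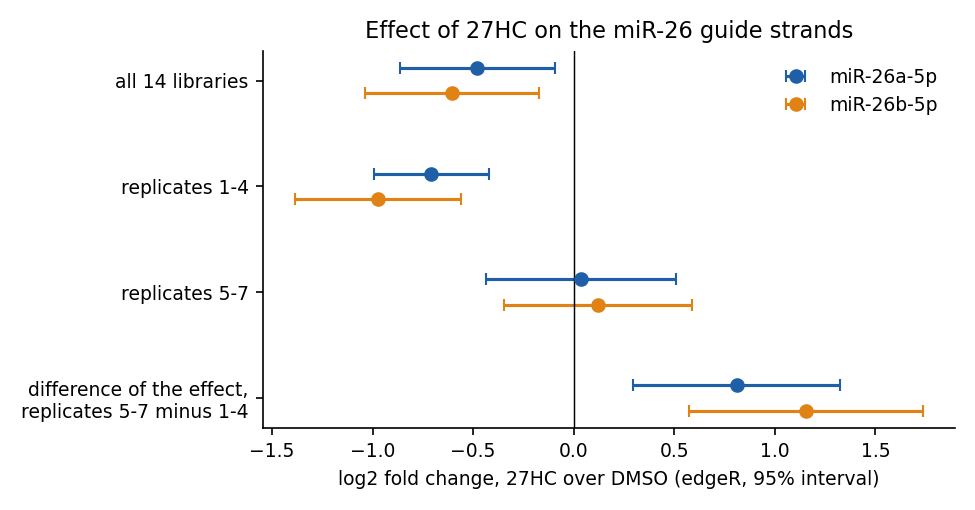
Log2 fold changes of 27HC over DMSO with 95% intervals from edgeR for miR-26a-5p and miR-26b-5p, in all 14 libraries, in each set of replicates, and the difference of the effect between the sets. The intervals of replicates 1 to 4 lie wholly below 0 and those of replicates 5 to 7 span 0.

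The difference between the sets was itself tested, by an interaction term over all 14 libraries. The effect of 27HC was higher in replicates 5 to 7 than in 1 to 4 by 0.81 on the log2 scale for miR-26a-5p (SE 0.24, interval 0.29 to 1.33, edgeR unadjusted p 0.00433, adjusted p 0.172). For miR-26b-5p the difference was 1.16 (SE 0.27, interval 0.57 to 1.74, edgeR unadjusted p 0.000712, adjusted p 0.0567). Neither passed the adjusted threshold, at which edgeR called 0 names, 0% of 239. Unadjusted, both had an edgeR p under 0.05, as did 24 names, or 10.0%.

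Other settings moved these values across the threshold. DESeq2 called 3 names, miR-26b-5p among them with an adjusted p of 0.0277. Without a filter on low counts edgeR called 9 names, with adjusted p-values of 0.00348 for miR-26a-5p and 0.0200 for miR-26b-5p. That fit shares its variance estimate with names near 0 counts, so its p-values may be too small. Without DMSO replicate 4 miR-26b-5p was called, at an edgeR adjusted p of 0.0425. Without DMSO replicate 7 the difference of miR-26a-5p shrank to 0.46 (edgeR adjusted p 0.719). Over the 17 alternatives the adjusted p ran from 0.00348 to 0.719 for miR-26a-5p and from 0.0200 to 0.502 for miR-26b-5p.

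The sets parted most in the solvent libraries. In DMSO, miR-26a-5p averaged 15497 ± 2866 CPM in replicates 1 to 4 (SD, n = 4) and 8947 ± 2414 CPM in replicates 5 to 7 (SD, n = 3). In 27HC the means were 9071 ± 925 CPM (SD, n = 4) and 9164 ± 446 CPM (SD, n = 3). miR-26b-5p averaged 994 ± 246 CPM (SD, n = 4) and 557 ± 71.7 CPM (SD, n = 3) in DMSO. In 27HC it averaged 484 ± 51.3 CPM (SD, n = 4) and 601 ± 62.3 CPM (SD, n = 3). The lowest treated library of replicates 5 to 7 held 545 CPM and the highest of 1 to 4 held 530 CPM, so the sets nearly met. As a difference of mean log2 levels, replicates 5 to 7 minus 1 to 4, miR-26a-5p gave −0.81 in DMSO and 0.019 in 27HC. miR-26b-5p gave −0.81 in DMSO and 0.32 in 27HC. For scale, the median absolute difference over the 239 tested names was 0.47 in DMSO and 0.34 in 27HC. In DMSO, 14 names lay lower than miR-26a-5p and 16 lower than miR-26b-5p. In 27HC these numbers were 117 and 163. The log2 differences depend on the scaling. TMM factors of DMSO libraries ran from 0.848 to 0.99967 in replicates 1 to 4 and from 1.06 to 1.19 in 5 to 7. By plain totals the gap in DMSO was smaller. There miR-26a-5p held mean shares of 1.44% and 0.993% in DMSO and 0.875% and 0.938% in 27HC, replicates 1 to 4 first. miR-26b-5p held 0.0923% and 0.0622% in DMSO and 0.0469% and 0.0615% in 27HC. All these differences are given as a description, since the sets were marked out by the profiles themselves.

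**Figure D3:**
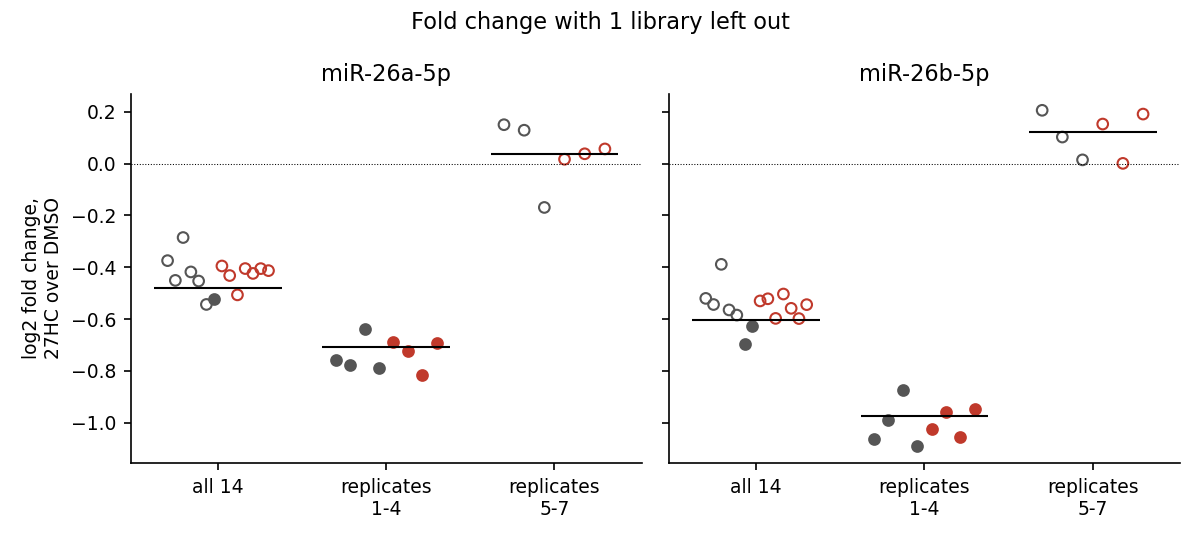
Log2 fold change of 27HC over DMSO for miR-26a-5p (left) and miR-26b-5p (right) with 1 library left out at a time, grey for a DMSO and red for a 27HC library left out. Filled points have an edgeR adjusted p under 0.05, black lines mark the fit with no library left out, and every point of replicates 1 to 4 is filled.

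The ratio of the 2 guide strands, made from different hairpins, did not differ detectably between treatments over all libraries. A ratio within a library needs no scaling of library sizes. Over the 14 libraries there were 12.9 to 19.985 counts of miR-26a-5p for each count of miR-26b-5p. On the log2 scale, with 0.5 added to each count, the ratio was 3.97 ± 0.18 in DMSO and 4.1 ± 0.21 in 27HC (SD, n = 7). These means lay 0.12 apart, less than either SD, and a two-sided exact permutation test gave p 0.256 (0.513 adjusted over the 2 ratios tested). Over 3432 splits the smallest possible p was 0.000583.

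Within replicates 1 to 4 the difference in this log2 ratio was 0.25 (exact permutation p 0.0857, smallest possible 0.0286). For replicates 5 to 7 the value was −0.042 (exact permutation p 0.9, smallest possible 0.1). In replicates 1 to 4, 3 of the 4 libraries with 27HC had a higher ratio than any DMSO library of the set, and replicate 1 did not. The split of ambiguous reads between the names bears on this ratio and was not tested. Summed to a single name, the guide strands gave a log2 fold change of −0.50 over all libraries, with an edgeR adjusted p of 0.0902.

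**Figure D4:**
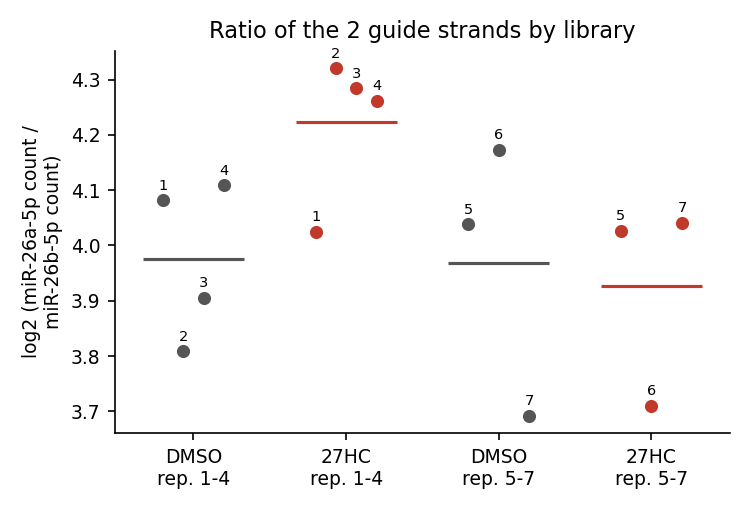
Log2 ratio of miR-26a-5p to miR-26b-5p counts in each library, by treatment and set of replicates, with replicate numbers beside the points and lines at the means. The ratios of all 14 libraries lie between 3.69 and 4.32.

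Passenger strands were scarce in every library. miR-26b-3p, the passenger of Mir26b, had 1 to 15 counts in each DMSO library, 29 in all. In 27HC libraries it had 11 counts in all, with none in replicates 2, 3 and 7. The log2 ratio of miR-26b-5p to miR-26b-3p was 6.01 ± 0.81 in DMSO and 6.27 ± 1.23 in 27HC (SD, n = 7). The means lay 0.26 apart (two-sided exact permutation p 0.632, also 0.632 when adjusted). With 1 in place of 0.5 added to the counts the sign turned, to −0.068. At these counts a change in arm use was not detectable.

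The passengers of the miR-26a hairpins are the only counts that separate Mir26a-1 from Mir26a-2. miR-26a-2-3p had 18 counts in DMSO and 12 in 27HC libraries, at most 5 in any library. miR-26a-1-3p had 1 count in DMSO replicate 3 and 1 in 27HC replicate 3, and none in the other 12 libraries. A count of 0 allows up to 3 counts, which among the 12 libraries without miR-26a-1-3p is 7.39 CPM of the total in the deepest, 27HC replicate 1, and 26.6 CPM in the shallowest, DMSO replicate 5. This limit covers counting error only. Passenger counts of this size give no estimate of how much miR-26a-5p each hairpin supplied.

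The names whose levels ran most nearly parallel to miR-26a-5p were found by the SD of the log2 ratio of counts over the 14 libraries. Among 109 other names with a mean of at least 100 counts, the median SD was 0.46. The closest was miR-223-3p, the signature miRNA of neutrophils, with an SD of 0.16. The second was miR-26b-5p itself at 0.20, followed by miR-142a-5p, from a locus active across blood cells, at 0.21. miR-340-5p (0.24) and miR-191-5p (0.24) completed the 5. All 14 libraries enter this measure, so it reflects depth, library and treatment together.

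Of the other 4 names, 3 were called lower in replicates 1 to 4, where 10.7% of all tested names were. They were picked for running parallel to miR-26a-5p over these same libraries, so this count is a description. miR-223-3p gave a log2 fold change of −0.43 there (edgeR adjusted p 0.0129) and 0.15 in replicates 5 to 7. For miR-142a-5p the values were −0.999 (edgeR adjusted p 0.00172) and −0.11. For miR-191-5p they were −0.56 (edgeR adjusted p 0.00159) and −0.092. miR-340-5p gave −0.26 and was not called (edgeR adjusted p 0.0883). In replicates 5 to 7 none of the 4 was called, with edgeR adjusted p-values from 0.826 to 0.840.

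**Figure D5:**
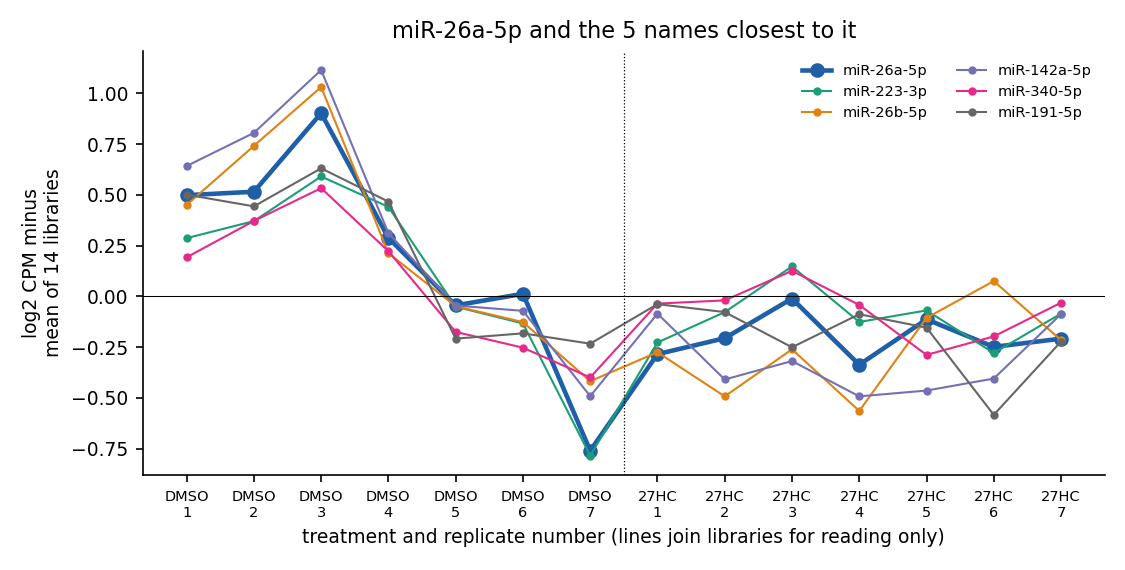
Log2 CPM minus the mean of the 14 libraries for miR-26a-5p (thick line) and the 5 names with the smallest SD of their log2 ratio to it, by treatment and replicate number. All 6 lines are high in DMSO replicates 1 to 4, and miR-26a-5p, miR-223-3p and miR-340-5p are lowest in DMSO replicate 7.

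The summed myeloid markers were high and low in much the same libraries as miR-26. Most of that sum is miR-223-3p (mean 130060 CPM), picked above for running parallel to miR-26a-5p. The likeness is therefore a description and no separate observation. In replicates 1 to 4 they ranged from 171830 to 215030 CPM in DMSO and from 115860 to 148030 CPM in 27HC. In replicates 5 to 7 they ranged from 82663 to 134650 CPM in DMSO and from 112200 to 127450 CPM in 27HC. Of the 4 myeloid names, edgeR called 3 lower in replicates 1 to 4, where 17.4% of all tested names were called in either direction. Over all libraries it called 2, both arms of miR-142a (12.6% of all names), and in replicates 5 to 7 it called 1, miR-142a-3p (6.06%). The median log2 fold change of the 4 was −0.71, −0.50 and −0.0075 in these fits. miR-223-5p went the other way, at 0.29, 0.17 and 0.098, and was not called. miR-223-3p was not called over all libraries (edgeR adjusted p 0.406) or in replicates 5 to 7 (0.829). The calls in those 2 fits thus rest on miR-142a, which does not mark myeloid cells alone. The part of the listed myeloid names in the miR-26 result was not tested. The lymphoid names also parted in replicates 1 to 4, at 1365 to 1674 CPM in DMSO and 973 to 1294 CPM in 27HC, with miR-150-5p called lower there and over all libraries. Over all libraries and in both sets, 0 erythroid, stromal and endothelial or liver markers were called by edgeR. Not all of these names could be tested. Over all libraries and in replicates 5 to 7, 2 of 5 erythroid and 4 of 7 stromal and endothelial names were. In replicates 1 to 4 it was 4 and 5. Unadjusted, the erythroid names miR-486a-5p and miR-486b-5p in replicates 5 to 7 had an edgeR p of 0.0328. None of the others had an edgeR p under 0.05 in these fits. The fits of miR-486a-5p and miR-486b-5p were identical (log2 fold change 0.54), so they stand for 1 measurement.

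DMSO replicate 7, lowest in miR-26a-5p, also had the most names with a count, 1091 of 1695 against 635 to 865 in the other libraries. What this has to do with its miR-26 level was not tested.

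Set beside other broadly expressed miRNAs, the miR-26 guide strands were among those lower in replicates 1 to 4. Of 11 names widely used as references or found in most tissues, all were tested. Over all libraries 1 was called, miR-103-3p, which was lower, against 12.6% of all names tested. In replicates 1 to 4, miR-191-5p and miR-103-3p were called lower and both arms of miR-423 higher, where 17.4% of all names were called. The median log2 fold change of the list was −0.035 in that set, against 0.059 over all names tested. In replicates 5 to 7 edgeR called 0 of the 11 and 6.06% of all names, with 1 of the 11 at an unadjusted p under 0.05.

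Of 9 listed miRNAs other than miR-26 that are reported to repress Ezh2, 4 were abundant enough to be tested, namely miR-101a-3p, let-7a-5p, let-7b-5p and let-7c-5p. let-7a-5p was called lower over all libraries (log2 fold change −0.44, edgeR adjusted p 0.00940) and in replicates 1 to 4. Among all tested names 12.6% and 17.4% were called in these fits. In replicates 5 to 7 edgeR called 0 of the 4 and 6.06% of all names, with 1 of the 4 at an unadjusted p under 0.05. The log2 fold changes of the others over all libraries were 0.068 for miR-101a-3p, −0.046 for let-7b-5p and 0.019 for let-7c-5p, with edgeR adjusted p-values from 0.820 to 0.980. The median of the 4 was −0.014, against 0.010 over all names tested.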

How the data were processed

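The authors deposited whole-number counts per mature miRNA name and library, which were used as raw counts. Small RNA libraries came from a QIAseq kit, per the labels' protocols. The submitters' processing notes list R 4.1.2, edgeR and limma with GRCm39. Aligner, counting rule and use of molecular identifiers are not given in the sources used here, so a count may be a read or a molecule, and limits cover counting error only. All rows and columns were matched to labels.

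27HC was compared with DMSO by edgeR 4.0.16 (quasi-likelihood, TMM, filterByExpr with a minimum count of 10 and total of 15) in R 4.3.3, with Benjamini-Hochberg adjustment over all names tested and calls at 0.05. The filter kept 239 names, holding 99.4% of counts. Filter and scaling were redone within each set of replicates. CPM per library uses TMM sizes of all 14 libraries. Intervals use the t quantile of the fit. Ratios were compared by exact permutation.

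On simulated counts for 1695 names, 78.6% of tested names changed 2-fold were called with all libraries, 43.8% in replicates 1 to 4, 12% in replicates 5 to 7 and 7.41% for the interaction. For 4-fold changes these shares were 100%, 97.1%, 100% and 61.5%. The 2-fold shares rest on 25 to 32 changed names per fit. All names were simulated with 1 common dispersion and 1 mean profile, without a difference between the sets. The shares are therefore a check of the fits and no estimate of the power in these data.

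Alternatives covered scaling, filter, DESeq2 1.42.0, voom from limma 3.58.1, robust dispersion, depth as a covariate, the replicate number or set as a term, summing the guide strands and leaving out each library. Fits without miR-16-5p, or without miR-3473b, miR-3473e and miR-129-5p, and fits within each set with depth as a covariate, were added after seeing the data. The named miRNAs are the 5 members, the 5 names closest to miR-26a-5p and list members needed for a result. Members, sets and lists were chosen with earlier results of these data known.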

Additional observations from a re-analysis of the deposited data

Results flagged for a closer look

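Of 16 groups of 7 libraries examined, 5 held a library far from the other 6 by Dixon's 95% criterion. Chance flags about 1 group in 20 for normally spread values, but this rate does not hold for counts near 0. All 5 rest on passenger strands with few counts. miR-26a-1-3p stood at 1.35 CPM in DMSO replicate 3 and at 4.95 CPM in 27HC replicate 3, each from 1 count, with 0 in the other libraries of the group. A group of that form is always flagged. miR-26a-2-3p stood at 15.9 CPM in DMSO replicate 5, from 2 counts, and at 32.6 CPM in 27HC replicate 7, from 4 counts. The log2 ratio of miR-26b-5p to miR-26b-3p was 7.73 in DMSO replicate 2, where miR-26b-3p had 1 count.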

How the results depend on the processing

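Over all libraries, plain totals gave log2 fold changes of −0.47 for miR-26a-5p and −0.59 for miR-26b-5p and upper quartile scaling gave −0.57 and −0.69, all called. With 1 library left out, miR-26a-5p ran from −0.54 to −0.29 and miR-26b-5p from −0.70 to −0.39, and with a low-count filter of a mean of 100 or none at all neither was called. Within replicates 5 to 7, plain totals gave −0.082 and −0.011, where the median of all tested names moved from 0.034 to −0.11, depth as a covariate gave −0.25 and −0.045, and leaving out 1 library gave −0.17 to 0.15 and 0.00096 to 0.21. For the difference between the sets, no filter gave 1.04 and 1.38 with 9 names called, and DESeq2 gave 1.11 for miR-26b-5p with 3 names called. Leaving out 1 library gave 0.46 to 0.93 for miR-26a-5p, 0.89 to 1.18 for miR-26b-5p and 0 to 3 calls. The ratio of the guide strands was −0.042 in replicates 5 to 7, and that of the miR-26b arms −0.068 with 1 added to the counts. The cause was not tested. Within replicates 1 to 4, no filter moved the median of the tested names from 0.059 to −0.14.

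Whether same-numbered libraries are paired is not settled by these data. The library descriptions carry matching number pairs in both treatments, and their meaning is not given. Deviations of same-numbered libraries correlated at 0.0686 in replicate 2 and at up to 0.600 in replicate 6. Taken within the sets, the correlations ran from −0.111 in replicate 4 to 0.292 in replicate 5, with 0.0708 in replicate 6. Not every library correlated best with its own number, and such values cannot exclude pairing. With the replicate block, 37 names were called over all libraries in place of 30, and the guide strands were at −0.41 and −0.55, not called. The block changed no call of the members within either set. In replicates 1 to 4 it lowered the SE of miR-26a-5p from 0.129 to 0.080. Of the 5 names closest to miR-26a-5p, 4 stayed among the 5 when the SD was taken within treatments. Depth limits the passenger strands above all, which had at most 15 counts in a library.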
